A study of Homo sapiens with 31 samples.

Results

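Transcripts of 10 nuclear-encoded subunits of respiratory complexes III and IV were followed through ribosome profiling, RNA-seq and RNA pulldown in HEK293 T-REx cells. This line comes from human embryonic kidney and allows an inserted gene to be switched on. Each subunit was represented by 1 Ensembl transcript, picked by its identifier and kept where the deposited length lay within 5 of the protein length in amino acids minus 9. All 10 were found, of 227264 transcripts listed. A reduction that aimed at 1 transcript per locus, by likeness of counts between neighbouring rows, left 35424. Several transcripts of a gene can remain among these. The deposited length equalled the protein length minus 9 in all 10, so it was read as the number of codons counted, from 54 for COX7C to 471 for UQCRC1. Complex IV was represented by 6 subunits: COX4I1 (ENST00000253452), COX5A (ENST00000322347), COX5B (ENST00000258424), COX6A1 (ENST00000229379), COX7C (ENST00000247655) and COX8A (ENST00000314133). Complex III was represented by 4: UQCRFS1 (ENST00000304863), UQCRC1 (ENST00000203407), UQCRC2 (ENST00000268379) and UQCRB (ENST00000287022).

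The series concerns the initiation helicase eIF4A1 and LARP1, a protein that binds mRNAs with a terminal oligopyrimidine (TOP) start, when the kinase mTORC1 is inhibited. Ribosome profiling, which sequences the RNA fragments protected by ribosomes (footprints), covered naive cells and knockout (KO) cells for EIF4A1 or EIF4A2, each genotype with 2 libraries in the solvent DMSO and 1 library each after 30 min of 1 µM or 10 µM PP242, an inhibitor of the mTOR kinase. RNA-seq covered naive and EIF4A1 KO cells without a stated treatment, with 2 libraries each. RNA pulldown used cells expressing eIF4A1 or eIF4A2 with a streptavidin-binding peptide (SBP-eIF4A1, SBP-eIF4A2), sequenced as 2 inputs and 2 pulldowns for each tag, and SBP-eIF4A1 cells after 72 h of control siRNA (siControl) or LARP1 siRNA (siLARP1), with 2 libraries of each kind except 1 siLARP1 pulldown. The labels name 1 line per knockout and do not say how it was made, so a difference between lines and an effect of the lost gene cannot be told apart. Nor do they say that the EIF4A2 KO libraries were prepared together with those of naive and EIF4A1 KO cells. The level of EIF4A1, EIF4A2 and LARP1 was not analysed here, nor was a pulldown from cells without a tagged protein, so genotype, knockdown and the RNA that binds beads alone rest on the labels. Nothing in the labels says that replicates came from separate cultures, so the p-values measure the spread between these libraries, which may be technical.

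Complex III passes electrons from ubiquinol to cytochrome c, and complex IV passes them from cytochrome c to oxygen. Both pump protons, and both join protein encoded in mitochondrial DNA with many subunits that are encoded in the nucleus, translated in the cytosol and imported. Signalling through mTORC1 is known to favour translation of TOP mRNAs, which encode mostly ribosomal proteins, and of some nuclear-encoded mitochondrial proteins.

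The start of the mRNA was examined first, because a TOP start is what LARP1 is known to bind. A TOP run was defined as C at the annotated start followed by at least 4 pyrimidines (C or T), read on the transcribed strand only. Of the 10 genes, 9 had an entry in the RefSeq promoter table (build GRCh38.p14), and UQCRB had none. The sequences below give 10 bases before the start and the first 15 transcribed bases, 5′ to 3′, for both genes that carry the run, for the gene that comes closest to it, and for COX5A and COX5B, on which later comparisons turn. Capitals mark the unbroken pyrimidine run that begins with C at the start.

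COX4I1 (chr16:85799685-85799709, plus strand): cggccttgctCTCTTCCggtcgcgg

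COX7C (chr5:86617931-86617955, plus strand): tcccatctttCTTTTCagtccttgc

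UQCRC2 (chr16:21953351-21953375, plus strand): aactcccggcCTCCgccaccatctt

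COX5A (chr15:74938059-74938083, minus strand): gctccggagcaacccgcgagcttac

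COX5B (chr2:97646052-97646076, plus strand): tgttcccggaagttttgctgctagt

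Thus 2 of 9 starts, those of COX4I1 (a run of 7) and COX7C (a run of 6), held the run, against 4.07% of 35116 promoters in the table. UQCRC2 began with a run of 4, 1 short of the rule. COX5A, COX5B, COX6A1 and COX8A began with A, and UQCRFS1 and UQCRC1 with G. When a run anywhere within 10 bases of the annotated start was counted, 4 of 9 members and 33.5% of all promoters held one. A match describes these letters and does not show binding.

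Levels were compared between subunits as CPM (counts scaled to the library total) per 100 codons. In naive cells COX7C, a small single-span subunit of complex IV, had the highest level per length in both assays, with 597 ± 0.56 CPM per 100 codons in footprints and 459 ± 5.2 in RNA (SD, n = 2). UQCRC1, a matrix-facing core protein of complex III, had the lowest, with 35.1 ± 2.4 in footprints and 45.2 ± 0.34 in RNA (SD, n = 2). In footprints the order below COX7C was COX6A1 (355), COX5A (336), COX4I1 (279), UQCRB (237), UQCRFS1 (222), COX8A (162), COX5B (129.2) and UQCRC2 (76.6 CPM per 100 codons). The 2 libraries of each subunit stayed apart from those of its neighbour in this order. In RNA the order below COX7C was COX4I1 (219), COX6A1 (187), UQCRB (175), UQCRFS1 (151), COX8A (136), COX5B (121), COX5A (103) and UQCRC2 (78.5 CPM per 100 codons), where COX6A1 overlapped UQCRB, and UQCRFS1 overlapped COX8A. Reads of closely similar copies cannot be told apart here: 8 of the 10 genes have named pseudogenes in the RefSeq table, up to 8 for COX5B, and their levels are uncertain to that extent.

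**Figure D1:**
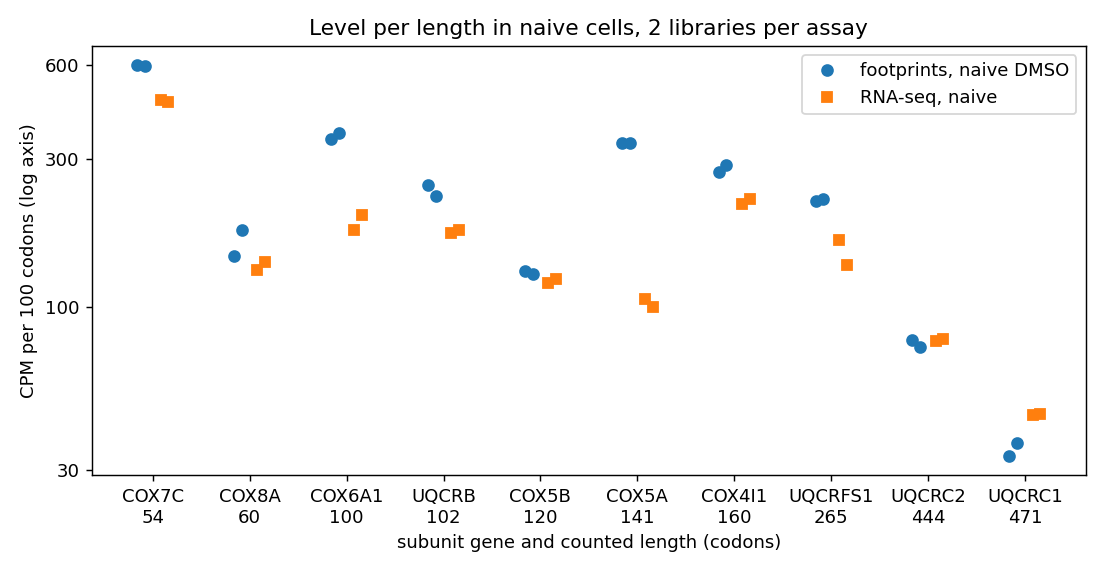
Level of each subunit transcript in naive cells (CPM per 100 codons, log axis) in 2 footprint libraries (circles) and 2 RNA-seq libraries (squares), with subunits ordered by counted length. COX7C lies highest in both assays, UQCRC1 lowest, and COX5A has the widest gap between assays.

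COX5A, a peripheral subunit of complex IV on the matrix side, stood out in the ratio of footprints to RNA. Its ratio in naive cells was 3.25 (3.16 to 3.35 over pairs of libraries), at percentile 97.2 among 16797 transcripts. The next ratios were 1.90 for COX6A1 and 1.47 for UQCRFS1, and the lowest were 0.976 for UQCRC2 and 0.777 for UQCRC1. The median over all these transcripts was 0.917. The ratio has no unit of its own beyond the 2 library totals, so only its order between transcripts is read.

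EIF4A1 KO and naive cells were set side by side first in RNA, which asks whether the level of these mRNAs differed before translation is considered. Of the 10 transcripts, 6 were lower in EIF4A1 KO cells and 0 higher at an adjusted p under 0.05 (edgeR, quasi-likelihood), where 18.5% of all transcripts tested were lower, 18.1% higher and 36.5% called in either direction. The differences were small: the median log2 change was -0.13 over the 10 and -0.0028 over all tested. COX7C fell most. Its naive libraries held 250 and 247 CPM and its EIF4A1 KO libraries 200.1 and 208 CPM, with CPM here and below scaled by TMM within the libraries of each comparison. The 2 groups did not overlap, and the log2 change was -0.29 (SE 0.037; adjusted p = 2.08e-07). COX5A held 150.2 and 142 CPM in naive cells against 121 and 129.4 in EIF4A1 KO cells, also without overlap, a log2 change of -0.22 (SE 0.045; adjusted p = 0.000151). UQCRC2, the second core protein of complex III, fell from 347 and 352 to 307 and 311 CPM, a log2 change of -0.18 (SE 0.034; adjusted p = 8.11e-05).

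UQCRFS1, the Rieske iron-sulfur protein of complex III, held 438 and 364 CPM in naive cells and 346 and 358 in EIF4A1 KO cells, so its call (log2 change -0.19) rests on naive replicate 1: without that library the log2 change was -0.05 and the call was lost. COX6A1 (log2 change -0.14) and COX5B (-0.11) were also called. Both calls were lost without naive replicate 2 (log2 changes of -0.056 and -0.085) or without EIF4A1 KO replicate 2 (-0.13 and -0.14), and that of COX5B also without EIF4A1 KO replicate 1 (-0.066), with RLE size factors (another scaling of the libraries), without the low-count filter and with the replicate number as a block. COX4I1 (log2 change 0.05), COX8A (-0.05), UQCRC1 (-0.04) and UQCRB (-0.05) did not pass. The DESeq2 Wald test called 3 of the 10, COX5A, COX7C and UQCRC2.

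Footprints in DMSO were then compared between the same genotypes. In EIF4A1 KO cells 6 of 10 subunits were lower and 0 higher, where 11.9% of all transcripts tested were lower, 10.9% higher and 22.8% called. The median log2 change was -0.17 over the 10 and -0.013 over all tested. Transcripts with a short counted length were lower as a class in this comparison: the median over all of at most 150 codons was -0.073. Of the 10 subunits, 6 are that short. The class can include short transcripts of genes that also have longer ones. The part that length plays in the subunits' values was not tested.

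COX5B, a zinc-binding matrix-side subunit of complex IV, fell most. It held 159 and 157 CPM of footprints in naive cells and 110.8 and 118 in EIF4A1 KO cells, a log2 change of -0.47 (SE 0.085; adjusted p = 4.12e-06). COX8A, a small single-span subunit of complex IV, held 88.7 and 108.9 CPM against 78.3 and 73.1, a log2 change of -0.39 (SE 0.10; adjusted p = 0.00207). COX7C held 327 and 329.5 CPM against 279.6 and 257, a log2 change of -0.29 (SE 0.066; adjusted p = 0.000322). In all 3 subunits both EIF4A1 KO libraries lay below both naive libraries.

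COX5A (log2 change -0.18), COX6A1 (-0.17) and UQCRC2 (-0.17) were the other calls, and none of the 3 passed with the DESeq2 Wald test, which called 2 of 10 (COX5B and COX7C), or with the replicate number as a block, which called 3 (COX5B, COX7C and COX8A). RLE size factors also ended the calls of COX6A1 and UQCRC2. Leaving out single libraries also ended calls: COX5A without naive replicate 2 (-0.18) or EIF4A1 KO replicate 1 (-0.075), COX6A1 without naive replicate 2 (-0.13) or EIF4A1 KO replicate 2 (-0.06), COX8A without naive replicate 2 (-0.23) or EIF4A1 KO replicate 2 (-0.34), and UQCRC2 without any 1 of the 4 (-0.14 to -0.20). COX4I1 (log2 change -0.16; adjusted p = 0.0547) passed when naive replicate 1 (-0.20) or EIF4A1 KO replicate 2 (-0.22) was left out, and without the low-count filter both it and UQCRFS1 passed.

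Translation efficiency (footprints relative to RNA) was compared through the interaction of assay and genotype. It was lower in EIF4A1 KO cells for 3 of 10 subunits, all of complex IV, and higher for 0, where 6.42% of all transcripts tested were lower, 3.27% higher and 9.69% called. The median was -0.049 over the 10, -0.062 over all tested and -0.13 over all transcripts of at most 150 codons, so the median of the list was no lower than that of the other transcripts. By complex the median was -0.15 for complex IV and -0.00028 for complex III. COX5B had a log2 change of -0.39 (SE 0.092; adjusted p = 0.00133), COX8A of -0.37 (SE 0.11; adjusted p = 0.0205) and COX4I1, the largest of the complex IV subunits here, of -0.24 (SE 0.069; adjusted p = 0.0108). COX7C and COX5A, whose footprints fell, had values of -0.04 and 0.0084: their RNA and footprints were lower by similar amounts. The COX5B call held in all alternatives tried. That of COX4I1 was lost with the DESeq2 Wald test and without EIF4A1 KO footprint replicate 1 (-0.21), naive RNA replicate 1 (-0.18) or either EIF4A1 KO RNA library (-0.21 both times). That of COX8A was lost with the DESeq2 Wald test, with RLE size factors, with the replicate number as a block, and without naive footprint replicate 2 (-0.23), EIF4A1 KO footprint replicate 2 (-0.34), naive RNA replicate 1 (-0.29) or either EIF4A1 KO RNA library (-0.32 and -0.36).

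**Figure D2:**
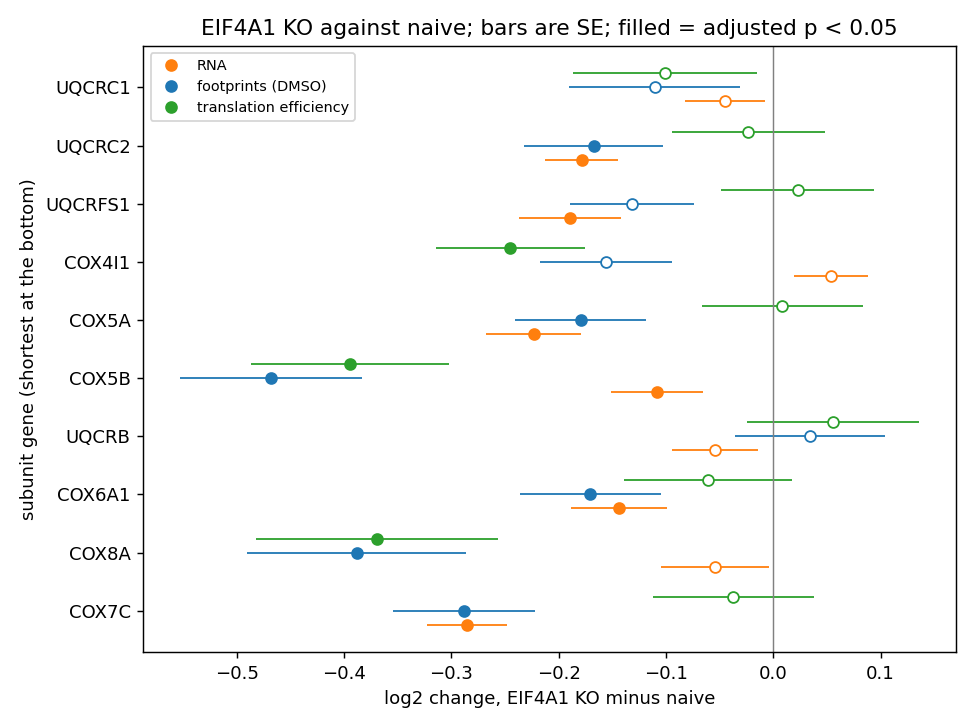
Log2 change in EIF4A1 KO against naive cells (horizontal axis) of RNA, footprints in DMSO and translation efficiency for each subunit, with SE bars; filled points passed an adjusted p under 0.05. COX5B reaches -0.47 in footprints with -0.11 in RNA, whereas COX7C has -0.29 in both.

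In EIF4A2 KO cells footprints in DMSO differed for 2 of 10 subunits, 1 in each direction, where 3.76% of all transcripts tested were higher, 4.33% lower and 8.09% called. These were the 2 genes with the TOP run printed above. COX7C rose: it held 327 and 329.5 CPM in naive cells and 397 and 407 in EIF4A2 KO cells, a log2 change of 0.29 (SE 0.060; adjusted p = 0.000125). COX4I1 fell: it held 439 and 469 CPM against 384 and 366, a log2 change of -0.28 (SE 0.059; adjusted p = 0.000236). Neither pair of groups overlapped, and both calls held in all alternatives tried. The other 8 lay between -0.12 (COX8A and UQCRC1) and 0.08 (UQCRFS1), with a median over the 10 of -0.060 against 0.00045 over all tested. Both knockouts were compared with the same naive libraries. COX7C had a log2 change in footprints of -0.29 in EIF4A1 KO cells, where its RNA also changed by -0.29, and of 0.29 in EIF4A2 KO cells. No RNA-seq covered EIF4A2 KO cells, so RNA level and translation cannot be told apart for the changes there.

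The response to PP242 asks how footprints on these mRNAs move when mTOR is inhibited, in each genotype. Each dose had 1 library per genotype, so PP242 at either dose was compared with DMSO. The treated group thus held both doses with no replicate of either, and its spread mixes dose with differences between libraries. In naive cells 8 of 10 subunits fell and 0 rose, where 5.71% of all transcripts tested fell, 3.68% rose and 9.39% were called. The median log2 change was -0.34 over the 10 and 0.0047 over all tested. UQCRB, a small matrix-side subunit of complex III, fell most. It held 269 and 250 CPM in DMSO, 139.6 CPM at 1 µM and 156 CPM at 10 µM, and both treated libraries lay far below both DMSO libraries, a log2 change of -0.82 (SE 0.077; adjusted p = 7.29e-14). COX5A held 506 and 510.2 CPM in DMSO, 304 at 1 µM and 366 at 10 µM, a log2 change of -0.61 (SE 0.070; adjusted p = 1.04e-10). COX4I1 held 463 and 494 CPM in DMSO, 339.7 at 1 µM and 374 at 10 µM, a log2 change of -0.43 (SE 0.066; adjusted p = 7.6e-07).

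UQCRC2 (log2 change -0.38), COX5B (-0.35), COX6A1, the form of subunit VIa made in most tissues (-0.34), COX8A (-0.32) and COX7C (-0.24) fell by less. Of the genes with the TOP run, COX7C fell least of the 8, and COX4I1 fell less than COX5A, which lacks the run. UQCRB has no start entry, so whether it carries the run is not known. A link between the run and these changes was not tested. UQCRFS1 had a log2 change of -0.02 (SE 0.061), with 623 and 637 CPM in DMSO, 639 at 1 µM and 603 at 10 µM, and its groups overlapped. UQCRC1 had -0.15 (adjusted p = 0.287). At 10 µM all 10 subunits lay below both naive DMSO libraries and at 1 µM 9 did, with median log2 changes of -0.30 and -0.33, with 1 library behind each. The share of all transcripts in that position was not counted, so these counts have no background to be read against. Calls were lost for COX7C without DMSO replicate 1 (-0.24), DMSO replicate 2 (-0.23) or the 10 µM library (-0.21), for COX8A with the DESeq2 Wald test and without DMSO replicate 2 (-0.16), the 10 µM library (-0.34) or the 1 µM library (-0.30), and for COX5B without the 1 µM library (-0.28).

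In EIF4A2 KO cells PP242 lowered 9 of 10 subunits and raised 0, where 7.11% of all transcripts tested fell, 4.66% rose and 11.8% were called. The median log2 change was -0.41 over the 10 and 0.014 over all tested. UQCRB held 244 and 252 CPM in DMSO, 116 at 1 µM and 121 at 10 µM, a log2 change of -1.07 (SE 0.077; adjusted p = 2.29e-19). COX4I1 held 404 and 386 CPM in DMSO, 229.5 at 1 µM and 224 at 10 µM, a log2 change of -0.80 (SE 0.068; adjusted p = 4.85e-16). COX5A held 505 CPM in both DMSO libraries, 301 at 1 µM and 312 at 10 µM, a log2 change of -0.72 (SE 0.069; adjusted p = 8.89e-14). All 10 subunits lay below both DMSO libraries at each dose, a position whose share over all transcripts was not counted. UQCRC1 was not called (log2 change -0.22; adjusted p = 0.0739) and passed without the 10 µM library (-0.32). The calls of COX8A (-0.39) and UQCRFS1 (-0.20) were lost without the 1 µM library (-0.30 and -0.20), the former also without DMSO replicate 1 (-0.31), the latter also without DMSO replicate 2 (-0.14) or the 10 µM library (-0.20).

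In EIF4A1 KO cells 4 of 10 subunits fell and 0 rose, where 3.71% of all transcripts tested fell, 2.34% rose and 6.05% were called. The median log2 change was -0.15 over the 10 and 0.0085 over all tested. UQCRB again fell most: it held 282 and 249 CPM in DMSO, 150.5 at 1 µM and 165 at 10 µM, a log2 change of -0.75 (SE 0.078; adjusted p = 5.66e-12). COX7C (log2 change -0.36), UQCRC2 (-0.35) and COX5A (-0.31) were the other calls. COX4I1 held 410.6 and 450 CPM in DMSO, 377 at 1 µM and 368 at 10 µM, which did not overlap but did not pass (log2 change -0.21; adjusted p = 0.051). With RLE size factors it passed, which made 5 of 10. COX5B held 117 and 124 CPM in DMSO, 130.2 at 1 µM and 139 at 10 µM, so both treated libraries lay above both DMSO libraries without passing (log2 change 0.16; adjusted p = 0.311). The COX7C call was lost without EIF4A1 KO DMSO replicate 1 (-0.30) and the COX5A call without replicate 2 (-0.20).

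**Figure D3:**
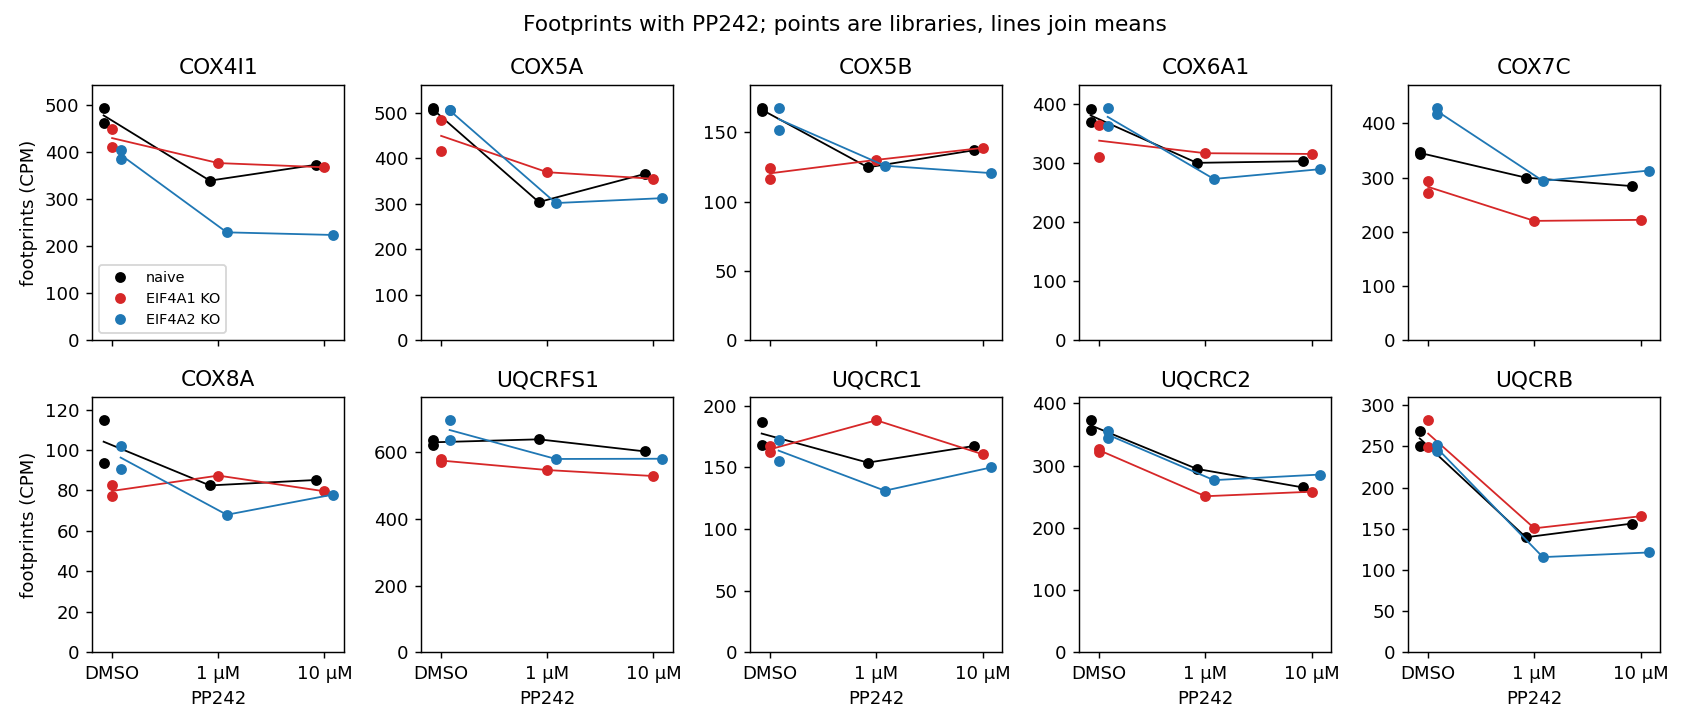
Footprints (CPM) of each subunit in DMSO and at 1 µM and 10 µM PP242 in naive, EIF4A1 KO and EIF4A2 KO cells; points are libraries and lines join their means. UQCRB falls in all 3 genotypes, COX4I1 drops furthest in EIF4A2 KO cells (to 224 CPM), and COX5B starts lower in EIF4A1 KO cells and does not fall there.

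The coding of dose changed these PP242 calls: with a slope over a dose score (0, 1 and 2 for DMSO, 1 µM and 10 µM) 0 of 10 were called in naive cells, 0 in EIF4A1 KO cells and 3 (COX4I1, COX5A and UQCRB) in EIF4A2 KO cells, against 8, 4 and 9. Over all transcripts that coding called 290, 0 and 448.

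Differences between the genotypes' responses were tested within the fit of all 12 profiling libraries. Against EIF4A2 KO cells, the response in EIF4A1 KO cells was higher (a smaller decrease or none) for 5 of 10 subunits and lower for 0, where 3.7% of all transcripts tested were higher, 2.54% lower and 6.24% called. All 5 belong to complex IV: COX4I1 (difference of log2 changes 0.59, SE 0.096; adjusted p = 8e-06), COX5B (0.54, SE 0.12; adjusted p = 0.00134), COX8A (0.45, SE 0.15; adjusted p = 0.0481), COX5A (0.41, SE 0.099; adjusted p = 0.00444) and COX6A1 (0.33, SE 0.098; adjusted p = 0.0298). The DMSO levels differed too: COX5B held 117 and 124 CPM in EIF4A1 KO against 152 and 168 in EIF4A2 KO cells. COX8A held 77.0 and 82.5 CPM in DMSO against 90.6 and 101.8. COX5A was also lower in EIF4A1 KO DMSO libraries, COX6A1 overlapped and COX4I1 was higher. The median difference was 0.32 over the 10 and 0.018 over all tested, and 0.086 over all transcripts of at most 150 codons. COX8A and COX6A1 were not called by the DESeq2 Wald test, nor COX8A with RLE size factors. Both calls were also lost without EIF4A1 KO DMSO replicate 2, the EIF4A1 KO 1 µM library, EIF4A2 KO DMSO replicate 1 or the EIF4A2 KO 1 µM library, that of COX8A without EIF4A1 KO DMSO replicate 1, and that of COX6A1 without the EIF4A1 KO 10 µM library (differences of 0.36 to 0.50 for COX8A and 0.21 to 0.33 for COX6A1). UQCRC1 (0.29; adjusted p = 0.147) passed without the EIF4A1 KO 10 µM library (0.41), and UQCRB (0.32; adjusted p = 0.0633) without the EIF4A1 KO 1 µM library (0.38). The COX5A call was lost without EIF4A1 KO DMSO replicate 1 (0.30). UQCRC2 (-0.04, 95% interval -0.22 to 0.15), COX7C (0.12, -0.07 to 0.31) and UQCRFS1 (0.10, -0.07 to 0.27) did not pass.

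Against naive cells, the response in EIF4A1 KO cells differed for 1 of 10 subunits, COX5B (difference 0.52, SE 0.12; adjusted p = 0.00251), where 3.62% of all transcripts tested were higher, 2.46% lower and 6.08% called. Its levels after PP242 were alike in both genotypes: 125 and 137 CPM in naive and 130.2 and 139 CPM in EIF4A1 KO cells at 1 µM and 10 µM. The DMSO levels were what differed, 167 and 165 CPM in naive and 117 and 124 CPM in EIF4A1 KO cells, and these are the same libraries that gave the lower DMSO footprints above. At an unadjusted p under 0.05, 5 of 10 and 3805 of 20457 transcripts passed, the 5 all of complex IV and all higher. UQCRC1 of complex III did not pass with a difference of 0.22, the same as that of COX4I1, which passed. COX7C of complex IV had -0.12. COX5A (difference 0.30; adjusted p = 0.0566) passed without the low-count filter, the naive 10 µM library (0.43) or EIF4A1 KO DMSO replicate 2 (0.41), and COX8A (0.38; adjusted p = 0.124) without naive DMSO replicate 1 (0.50).

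The response in EIF4A2 KO cells did not differ from that in naive cells for any of the 10 by edgeR (0 called, 0 by the DESeq2 Wald test), where 0.00489% of all transcripts tested were higher, 0.0635% lower and 0.0684% called. At an unadjusted p under 0.05, 4 of 10 and 1313 of 20457 transcripts passed. The largest was COX4I1, with a difference of -0.37 (95% interval -0.56 to -0.19; adjusted p = 0.134), which passed without the naive 1 µM library (-0.44). With the dose score, 0 of 10 were called in each of the 3 differences between genotypes.

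**Figure D4:**
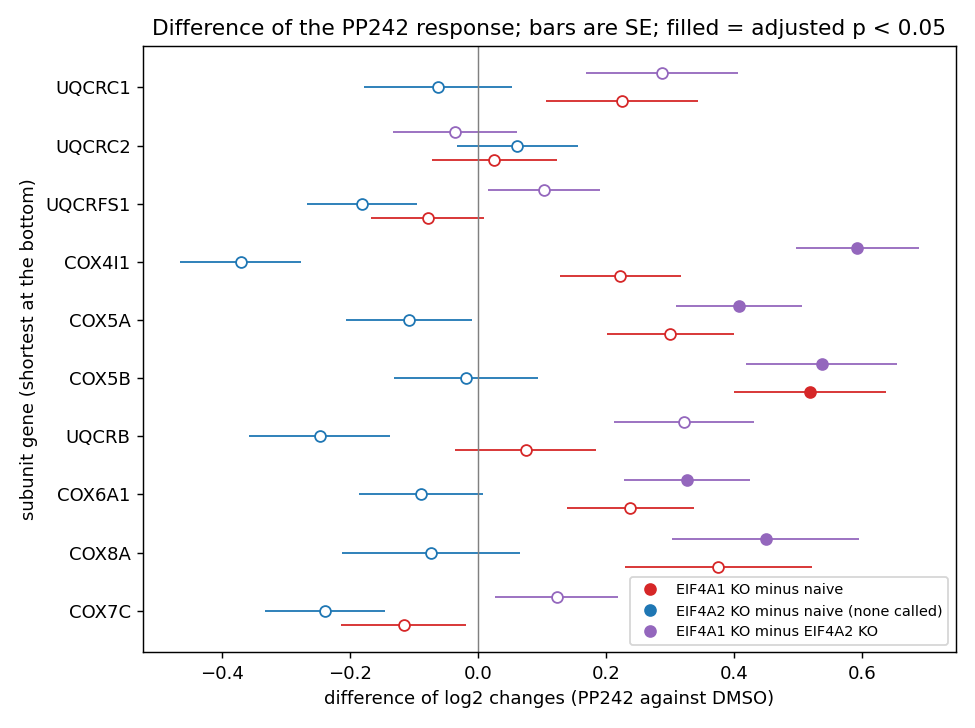
Difference of the log2 response to PP242 between genotypes (horizontal axis) for each subunit, with SE bars; filled points passed an adjusted p under 0.05. The 5 filled points of EIF4A1 KO minus EIF4A2 KO are complex IV subunits between 0.33 and 0.59, and COX5B at 0.52 is the filled point of EIF4A1 KO minus naive.

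Pulldown compared the RNA captured with each tagged eIF4A with its input. With SBP-eIF4A1, 6 of 10 subunits were enriched and 2 were depleted, where 28.8% of all transcripts tested were enriched, 26.6% depleted and 55.4% called in all, so a call alone is common in this assay. The median log2 enrichment was 0.21 over the 10 and 0.037 over all tested. COX8A was enriched most: its inputs held 64.5 and 67.8 CPM and its pulldowns 108.8 and 116 CPM, a log2 change of 0.76 (SE 0.072; adjusted p = 1.03e-07). UQCRB followed with 129.9 and 140.5 CPM in inputs and 199 and 189 in pulldowns (log2 change 0.52, SE 0.071; adjusted p = 8.06e-06), and UQCRFS1 with 491 and 494 CPM in inputs and 629.5 and 725 in pulldowns (0.46, SE 0.070; adjusted p = 2.83e-05). COX7C (0.33), COX4I1 (0.26) and COX5A (0.16) were enriched less.

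The depleted subunits were the 2 core proteins, which have the longest coding regions of the list. UQCRC1 held 193 and 191 CPM in inputs and 76.2 and 85.8 in pulldowns, a log2 change of -1.24 (SE 0.069; adjusted p = 1.33e-10). UQCRC2 held 238.5 and 250.3 CPM in inputs and 134 and 131.5 in pulldowns, a log2 change of -0.88 (SE 0.060; adjusted p = 1.67e-09). Over all transcripts the median was 0.17 for at most 150 codons and -0.052 for longer ones, and the part that length plays here was not tested. The COX5A call was lost with the DESeq2 Wald test, with RLE size factors, without the low-count filter, and without input replicate 1 (0.11), input replicate 2 (0.20) or pulldown replicate 2 (0.087). COX6A1 (0.13; adjusted p = 0.0821) passed without input replicate 1 (0.20) and with all distinct transcripts, and COX5B had 0.019.

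With SBP-eIF4A2, 8 of 10 subunits were depleted and 0 enriched, where 30% of all transcripts tested were depleted, 29.8% enriched and 59.8% called. The median was -0.60 over the 10 and 0.025 over all tested. UQCRC1 (log2 change -1.65) and UQCRC2 (-1.42) were again the lowest. COX5B held 93.6 and 98.1 CPM in inputs and 52.6 and 55.1 in pulldowns (-0.83, SE 0.070; adjusted p = 2.04e-08), COX5A 199 and 202 against 112 and 121 (-0.78, SE 0.061; adjusted p = 8.46e-09) and COX7C 206.5 and 214 against 132 and 135 (-0.66, SE 0.055; adjusted p = 1.88e-08). COX6A1 (-0.55), COX4I1 (-0.38) and UQCRB (-0.30) were depleted less. COX8A (0.025) and UQCRFS1 (-0.10) did not pass, the latter passing without pulldown replicate 1 (-0.24).

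The enrichment was higher with SBP-eIF4A1 than with SBP-eIF4A2 for all 10 subunits by edgeR's test of the difference, where 10.4% of all transcripts tested were higher, 5.3% lower and 15.7% called. The median difference was 0.71 over the 10, 0.035 over all tested and 0.10 over all transcripts of at most 150 codons. COX7C had the largest difference (0.98, SE 0.077; adjusted p = 3.29e-07), followed by COX5A (0.94, SE 0.086; adjusted p = 1.89e-06) and COX5B (0.85, SE 0.098; adjusted p = 1.59e-05). UQCRC1 had the smallest (0.41, SE 0.097; adjusted p = 0.00791), and the median was 0.79 for complex IV and 0.55 for complex III. All 10 were called with every tool and scaling tried. UQCRC1 was lost without SBP-eIF4A1 pulldown replicate 2 (0.32) or SBP-eIF4A2 input replicate 2 (0.41). The SBP-eIF4A1 and SBP-eIF4A2 libraries come from different cells, share no input, and are not stated to have been prepared together. Tag, cells and experiment therefore cannot be told apart, and the amount of tagged protein in the cells was not analysed here.

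The siRNA experiment repeated the SBP-eIF4A1 pulldown after transfection. After siControl, all 10 subunits were depleted, where 23.9% of all transcripts tested were depleted, 25.2% enriched and 49.2% called. The log2 changes ran from -1.30 (UQCRC2) to -2.65 (COX5B), with a median of -1.98 over the 10 and 0.086 over all tested. COX5B held 156 and 166 CPM in inputs and 26.7 and 24.5 in pulldowns, COX8A 76.8 and 73.1 against 28.8 and 21.8, and UQCRFS1 523 and 543 against 214 and 194. These values go against those without siRNA, where COX8A, UQCRFS1 and 4 others were enriched with the same tagged protein. Fitted together, the difference (siControl minus no siRNA) was called for 8 of 10, all lower, where 23.8% of all transcripts tested were lower, 26.5% higher and 50.2% called. Its median was -2.27 over the 10 and 0.098 over all tested, and COX6A1 had the largest (-2.72, SE 0.16; adjusted p = 8.5e-09). UQCRC1 (-0.49; adjusted p = 0.0724) and UQCRC2 (-0.36; adjusted p = 0.0511), already depleted without siRNA, did not pass. Both passed with the replicate number as a block, which made 10 of 10. UQCRC1 also passed without the low-count filter, and UQCRC2 with RLE size factors and with all distinct transcripts. UQCRC1 passed without siControl input replicate 2 (-0.72) or siControl pulldown replicate 1 (-0.65), and UQCRC2 without siControl input replicate 1 (-0.47) or siControl pulldown replicate 2 (-0.38). The labels give the 2 experiments no shared libraries, so transfection and experiment cannot be told apart.

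**Figure D5:**
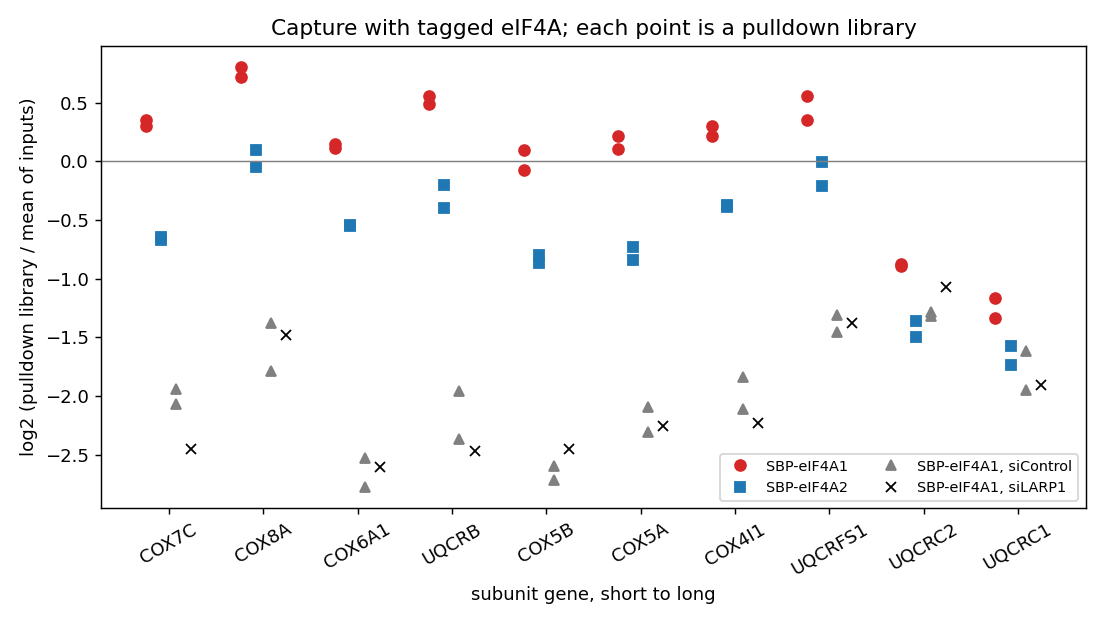
Log2 ratio of each pulldown library to the mean of its inputs, for each subunit. SBP-eIF4A1 points (circles) lie above SBP-eIF4A2 points (squares) for all 10 subunits, and the points after siControl and siLARP1 lie between -2.77 and -1.07.

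The siRNA against LARP1 was examined in the inputs. By edgeR 0 of 10 subunits were called after siLARP1 against siControl, where 0.116% of all transcripts tested were lower, 0.274% higher and 0.39% called. At an unadjusted p under 0.05, 7 of 10 and 3201 of 26635 transcripts passed. The DESeq2 Wald test called 1 of 10, COX7C, and 369 of all transcripts, where edgeR called 104. All 10 log2 changes were below 0, with a median of -0.41 over the 10 and 0.026 over all tested. COX7C held 219 and 232 CPM after siControl and 133 and 144 after siLARP1, which did not overlap (log2 change -0.71, SE 0.18; adjusted p = 0.0634). It also passed with RLE size factors, without the low-count filter and with all distinct transcripts. COX4I1, the other gene with the TOP run, held 351 and 390.4 CPM against 302 and 366 (-0.15, SE 0.18; adjusted p = 0.807), with overlap. COX5B held 156 and 166 against 115 in both siLARP1 libraries (-0.49; adjusted p = 0.232) and COX6A1 254 and 259 against 199.6 and 195 (-0.38; adjusted p = 0.386), both without overlap. UQCRC1 held 185 and 128 against 152 and 151 (-0.05).

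With 1 siLARP1 pulldown library, the change of SBP-eIF4A1 enrichment after siLARP1 has no test. Its log2 value (siLARP1 minus siControl) lay below 0 for 5 subunits and above 0 for 5, from -0.45 for COX7C to 0.23 for UQCRC2, with a median of -0.025 over the 10 and -0.050 over all transcripts. COX7C had log2 enrichments of -2.00 after siControl and -2.45 after siLARP1, UQCRB -2.17 and -2.47, and COX4I1 -1.97 and -2.23. COX5B had -2.66 and -2.45, and UQCRC2 -1.30 and -1.07.

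Depth and the spread between libraries both limit the precision of these values. COX4I1 had an SE of 0.18 for siLARP1 against siControl inputs. It had an SE of 0.062 for DMSO footprints in EIF4A1 KO against naive cells, where its counts were lower. Summed over the reduced set of transcripts, totals ran from 2514867 to 6419106 counts in profiling, from 11883114 to 17630956 in pulldowns and inputs, and from 19695689 to 21619174 in RNA-seq. The 10 subunits together took 0.253% to 0.32% of the counts in profiling, 0.21% to 0.231% in RNA-seq and 0.0745% to 0.230% in pulldown and input libraries, and a single subunit had between 186 and 9447 counts in a library. Values are shares of a library, so a change common to all mRNAs would go unseen, and fewer cells and less RNA per cell cannot be told apart.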

How the data were processed

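The 31 libraries comprised 12 of ribosome profiling, 4 of RNA-seq and 15 of RNA pulldown or its input. The authors deposited 1 table per library with a raw, whole-number count per versioned Ensembl transcript, and a length per transcript that was used only to divide levels and to split short from long. CASAVA 1.8, STAR 2.7.0a and genome build hg38 are named per the submitters' processing notes, and the counting tool and annotation are not given in the sources used here. A stranded mRNA kit was used for RNA-seq and pulldown, per the labels' protocols.

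Transcripts with identical counts were collapsed (77343 distinct), and the table was then reduced towards 1 transcript per locus. A transcript was dropped where its log2 CPM (pseudocount 0.5) correlated at 0.9 or more with a kept one within 10 rows. The 10 members were kept first. That left 35424. No gene annotation was used, so shares and medians over all transcripts can count a gene more than once. Tests used edgeR 4.0.16 (R 4.3.3) with TMM, filterByExpr (minimum count 10, minimum total count 15) and the two-sided quasi-likelihood test, in 7 fits giving 16 tested comparisons. Benjamini-Hochberg adjustment ran over all transcripts tested in a comparison, called at an adjusted p under 0.05. PP242 was coded as either dose against DMSO. Alternatives were RLE size factors, DESeq2 1.42.0, no low-count filter, all distinct transcripts, the replicate block, a dose score and leaving out each library. The first comparison of each fit was also run on simulated counts with known changes, drawn with the dispersion estimated from these data. Differences between PP242 responses and between the tags were not covered by this, and its outcome is not given here.

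The subunits, the gene lists and the tests were chosen with earlier results of these data known. All 10 subunits are named, by the symbols the rule gave. No table at hand pairs transcript identifiers with symbols, so a list of other complex III and IV genes and assembly factors was not used here and no other transcript is named. Start sites came from the RefSeq promoter table (GRCh38.p14). Intervals and SEs are from the fits.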

Additional observations from a re-analysis of the deposited data

Results flagged for a closer look

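Each of the following is a tested difference between groups called by edgeR (adjusted p under 0.05). They are given as differences of log2 changes.

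The response to PP242 differed between EIF4A1 KO and naive cells for COX5B (0.52). Between EIF4A1 KO and EIF4A2 KO cells it differed for COX4I1 (0.59), COX5B (0.54), COX8A (0.45), COX5A (0.41) and COX6A1 (0.33). All of these were higher in EIF4A1 KO cells, and they share the EIF4A1 KO libraries. In those cells the responses of COX4I1, COX5A and COX6A1 were less negative, and those of COX5B (0.16) and COX8A (0.055) lay above 0 without being called. For EIF4A1 KO minus EIF4A2 KO, the COX8A call held in 5 of 13 alternatives and the COX6A1 call in 6 of 13. With the dose score none of the PP242 differences was called.

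Enrichment with SBP-eIF4A1 minus that with SBP-eIF4A2 was 0.98 for COX7C, 0.94 for COX5A, 0.85 for COX5B, 0.82 for UQCRB, 0.74 for COX8A, 0.68 for COX6A1, 0.64 for COX4I1, 0.56 for UQCRFS1, 0.54 for UQCRC2 and 0.41 for UQCRC1.

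Enrichment with SBP-eIF4A1 after siControl minus that without siRNA was -2.72 for COX6A1, -2.62 for UQCRB, -2.61 for COX5B, -2.30 for COX5A, -2.27 for COX7C, -2.27 for COX8A, -2.17 for COX4I1 and -1.79 for UQCRFS1.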

How the results depend on the processing

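Numbers of subunits called, and median log2 changes, were compared across settings; unless stated, the cause of a change was not tested. With the DESeq2 Wald test the number called was 3 for RNA and 2 for DMSO footprints in EIF4A1 KO cells, 1 for translation efficiency, 3 for the PP242 response of EIF4A1 KO minus EIF4A2 KO cells and 1 for siLARP1 inputs. RLE size factors, no low-count filter and all distinct transcripts each also gave 1 (COX7C) for siLARP1 inputs, and no low-count filter gave 2 for the PP242 response of EIF4A1 KO minus naive cells. With the dose score the number called was 0 for naive cells, 0 without EIF4A1 and 3 without EIF4A2, and 0 for EIF4A1 KO minus naive and 0 for EIF4A1 KO minus EIF4A2 KO. The medians were then -0.18, -0.090, -0.21, 0.073 and 0.17 in that order; these are per step of the score, another scale by construction. UQCRC1 in EIF4A1 KO cells was then -0.0016. The median enrichment was 0.18 with RLE and 0.18 with DESeq2 for SBP-eIF4A1, 0.67 with both for SBP-eIF4A1 minus SBP-eIF4A2, -0.64 without the filter for SBP-eIF4A2, and -2.31 with all distinct transcripts for siControl minus no siRNA. Values that changed sign without being called were translation efficiency of COX7C (0.0044 with RLE, 0.0043 with DESeq2) and UQCRC2 (0.018 with both, 0.010 with all distinct transcripts), SBP-eIF4A1 enrichment of COX5B (-0.011 with both) and SBP-eIF4A2 enrichment of COX8A (-0.0098 without the filter). The TOP run counted within 10 bases was held by 4 members. The median log2 ratio of footprints to RNA with TMM-scaled totals was 0.50 in naive and 0.36 in EIF4A1 KO cells.

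Leaving out 1 library at a time gave 2 to 6 subunits called for DMSO footprints and 1 to 3 for translation efficiency in EIF4A1 KO cells. For the PP242 response it gave 1 to 2 for EIF4A1 KO minus naive, 0 to 1 for EIF4A2 KO minus naive and 3 to 5 for EIF4A1 KO minus EIF4A2 KO. Median log2 changes ran from -0.14 to -0.071 for RNA, -0.12 to -0.013 for translation efficiency, -0.49 to -0.35 for PP242 in EIF4A2 KO cells, 0.16 to 0.27 for EIF4A1 KO minus naive, -0.17 to -0.064 for EIF4A2 KO minus naive, and 0.27 to 0.38 for EIF4A1 KO minus EIF4A2 KO. In pulldown they ran from 0.15 to 0.25 for SBP-eIF4A1, -0.65 to -0.59 for SBP-eIF4A2, 0.66 to 0.76 for their difference, -2.06 to -1.95 for siControl, -2.34 to -2.14 for siControl minus no siRNA, -0.47 to -0.39 for siLARP1 inputs and -0.099 to 0.063 for siLARP1 minus siControl. Uncalled values that changed sign were UQCRB (-0.061 to 0.12) in EIF4A1 KO footprints, COX5B (-0.13 to 0.0070), COX6A1 (-0.067 to 0.043) and COX8A (-0.26 to 0.037) in EIF4A2 KO footprints, and in translation efficiency COX5A (-0.12 to 0.088), COX6A1 (-0.21 to 0.056), COX7C (-0.13 to 0.020), UQCRFS1 (-0.082 to 0.18), UQCRC2 (-0.079 to 0.021) and UQCRB (-0.066 to 0.12). Under PP242 they were UQCRFS1 in naive cells (-0.067 to 0.018), COX6A1 (-0.21 to 0.024), COX8A (-0.0030 to 0.13) and UQCRC1 (-0.033 to 0.19) in EIF4A1 KO cells, UQCRC2 (-0.041 to 0.11) and UQCRB (-0.012 to 0.17) for EIF4A1 KO minus naive, and COX5A (-0.24 to 0.025), COX5B (-0.092 to 0.054), COX8A (-0.23 to 0.061), UQCRC1 (-0.17 to 0.029) and UQCRC2 (-0.0065 to 0.15) for EIF4A2 KO minus naive. In pulldown they were COX5B with SBP-eIF4A1 (-0.085 to 0.086), COX8A with SBP-eIF4A2 (-0.080 to 0.075) and UQCRC1 in siLARP1 inputs (-0.33 to 0.22).

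Transcripts called over the whole table fell with the dose score from 1921 to 290 in naive, 1237 to 0 in EIF4A1 KO and 2407 to 448 in EIF4A2 KO cells, and from 1244 to 2 for EIF4A1 KO minus naive. They also moved with DESeq2 (2210 against 4509 for EIF4A1 KO footprints, 523 against 1602 for EIF4A2 KO footprints, 5441 against 9381 for RNA) and with all distinct transcripts (26611 for RNA, 42029 against 14693 for SBP-eIF4A1 pulldown), where more transcripts were tested. Groups share replicate numbers 1 and 2 in the labels with nothing that pairs them, and deviations of same-numbered libraries correlated across transcripts between -0.13 and 0.043, except 0.47 for siControl input and pulldown. The fit with the replicate block called 3 subunits for DMSO footprints in EIF4A1 KO cells (without COX5A, COX6A1 and UQCRC2), 5 for RNA (without COX5B), 2 for translation efficiency (without COX8A) and 10 for siControl minus no siRNA (with UQCRC1 and UQCRC2). PP242 libraries carry no numbers, so no block was fitted there. Depth limits profiling most, where a subunit had as few as 186 counts.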
